A study of Mus musculus with 8 samples.

Results

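Col1a1, Col1a2, Col3a1, Col14a1 and Sparc were read out in 8 bulk RNA libraries of cultured mouse bone marrow cells. They are 5 of the 27710 genes listed in each library, found by their symbols. They had been picked from these same measurements because their counts were far lower in the replicates numbered 1 of the s4U-fed groups, so that difference is described below without a test. The study grew lineage-depleted bone marrow, the stem and progenitor cells that remain once mature blood cells are removed, in DMEM with 10% fetal bovine serum and cytokines that include SCF, Flt3L and IL3. Its title concerns the effect of ALKBH5, an enzyme that removes N6-methyladenosine from RNA, on the stability of metabolic transcripts. Cells were fed 100 µM 4-thiouridine (s4U), a nucleoside that is built into new RNA, for 2 h. All RNA then went through TimeLapse chemistry, which alters s4U so that sequencing reads it as C.

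The Alkbh5-deficient cells, called vcAlkbh5 by the labels, have the strain label Vav-iCre+; Alkbh5fl/fl. Vav-iCre is a recombinase driven by a promoter that is active in blood cells and known to act in some endothelium, so cells outside these lineages may keep the floxed gene. There were 3 s4U-fed vcAlkbh5 libraries, 3 s4U-fed wild-type (WT) libraries, 1 unlabelled vcAlkbh5 library and 1 unlabelled WT library. The unlabelled libraries carry the agent label None, although the same treatment text stands with every sample. The labels give no age or sex, and nothing in them ties a replicate to an animal of its own. The p-values below therefore reflect how far these libraries differ from each other, and how much of that is technical is not known. Fed replicates numbered 2 held Xist RNA (13896 counts in vcAlkbh5 and 17471 in WT) and 0 counts of the Y-linked Ddx3y, while fed replicates numbered 1 and 3 had at most 2 counts of Xist and 200 or more of Ddx3y, so replicate 2 of each fed group came from another animal than replicates 1 and 3.

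Gene counts totalled between 5723245 and 8615997 per library, and 18661 to 20821 genes had at least 1 count. Alkbh5 had 0, 1 and 1 counts in the fed vcAlkbh5 libraries, against 1166, 1479 and 1061 counts in the fed WT libraries. It had 1 count in the unlabelled vcAlkbh5 library and 1263 counts in the unlabelled WT library, so the gene followed the genotype labels. The 2 fed replicates numbered 1 stood apart from the other 6 libraries over the whole transcriptome. Of 14031 genes with a mean of at least 1 in counts-per-million scaled by TMM (CPM), 16.3% were lower in both of them than in any of the other 6 libraries, and 18.1% were higher in both. Reads in no gene made up 37.6% of counts in vcAlkbh5 fed replicate 1 and 38.3% in WT fed replicate 1, against 48.9% to 52.1% in the other 6. WT fed replicate 3 stood apart over all genes as well, by the chi-square per gene between 2 libraries, which grows with their difference. It was 23 against the nearest library, vcAlkbh5 fed replicate 2, and 54.6 against the farthest, vcAlkbh5 fed replicate 1. Between vcAlkbh5 and WT fed replicates 2 it was 5.58.

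Fibrillar collagens are the rope-like proteins that give connective tissue and bone their tensile strength. Each chain carries a long uninterrupted run of glycine-X-Y triplets, where X and Y are often proline and hydroxyproline, and chains wind around each other into a triple helix. Col1a1 and Col1a2 encode the alpha-1 and alpha-2 chains of type I collagen, the main protein of bone matrix, which assembles from a pair of alpha-1 chains and a single alpha-2 chain. Col3a1 encodes the chain of type III collagen, a homotrimer found with type I in elastic tissues and in the reticular fibres of marrow. Col14a1 encodes type XIV collagen, a member of the FACIT group, whose members sit on the surface of collagen fibrils and have short, interrupted triple helices. Sparc encodes osteonectin, a secreted glycoprotein that binds collagen and calcium and is abundant in bone. In bone marrow these genes are known chiefly from osteoblasts, fibroblasts and reticular stromal cells, and megakaryocytes are known to carry SPARC as well.

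The coding sequences show what sets the collagen chains apart from each other and from Sparc. The stretches below open the longest unbroken glycine-X-Y run of each chain in its longest GENCODE M21 coding transcript, 5′ to 3′. The leading glycine codon of each triplet is in capitals. Glycine codons at X or Y, as at the start of the Col3a1 stretch, stay in lower case.
Col1a1, coding bases 502 to 561: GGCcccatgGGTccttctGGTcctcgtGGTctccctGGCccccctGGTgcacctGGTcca
Col1a2, coding bases 289 to 348: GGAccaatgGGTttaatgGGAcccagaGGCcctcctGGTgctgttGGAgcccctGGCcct
Col3a1, coding bases 490 to 549: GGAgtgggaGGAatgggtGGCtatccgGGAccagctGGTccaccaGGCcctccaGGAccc
Col14a1, coding bases 4549 to 4608: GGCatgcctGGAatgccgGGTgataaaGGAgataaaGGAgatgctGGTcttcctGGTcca
The longest run held 338 triplets in Col1a1, 339 in Col1a2 and 344 in Col3a1, but 32 in Col14a1. Glycine codons made up 26.8%, 27.8% and 28.3% of the 3 fibrillar chains, 10.9% of Col14a1 and 4.82% of Sparc. Sparc had no run longer than 2 triplets. The stretches shown differ in sequence between genes at the nucleotide level, but the whole repeats were not compared. How reads that match several genes were handled is not stated in the labels.

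On GRCm38, Col1a1 (ENSMUSG00000001506.10) lies on the plus strand of chromosome 11, 94936224 to 94953042, and Sparc (ENSMUSG00000018593.13) on the minus strand of the same chromosome, 55394500 to 55423183. Col1a2 (ENSMUSG00000029661.16) lies on chromosome 6, 4504814 to 4541544, plus strand. Col3a1 (ENSMUSG00000026043.18) lies on chromosome 1, 45311538 to 45349706, plus strand, and holds the microRNA gene Gm47302, with which it shared 0 reads in every library. Col14a1 (ENSMUSG00000022371.16) lies on chromosome 15, 55307750 to 55520803, plus strand. Genes on the opposite strand overlap Col14a1 (1700040F17Rik, Gm18787 and Gm49257). The strand setting of the counting is not given, so whether reads of these genes were counted as its own is not known. Among the entries for reads shared by several genes, none names Col14a1. Col1a2 overlaps the same-strand entry Gm43921.

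RefSeq promoter windows (GRCm38.p6) were at hand for 3 of the 5 genes, and the bases before the start of 2 of them are shown as a description. Shared regulation of the genes was not tested. In the Col3a1 window the TATAAA match is in capitals, and in the Col1a2 window the 2 GGGCGG matches are.
Col3a1, chr1:45311288-45311537, plus strand: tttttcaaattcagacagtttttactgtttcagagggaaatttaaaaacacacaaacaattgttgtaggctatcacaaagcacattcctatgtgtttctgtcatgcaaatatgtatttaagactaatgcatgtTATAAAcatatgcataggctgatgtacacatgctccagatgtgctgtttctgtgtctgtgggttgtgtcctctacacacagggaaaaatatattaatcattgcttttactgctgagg
Col1a2, chr6:4505370-4505492, plus strand, the bases of the window that no GENCODE exon covers, which lie inside the annotated gene because a transcript starts further upstream: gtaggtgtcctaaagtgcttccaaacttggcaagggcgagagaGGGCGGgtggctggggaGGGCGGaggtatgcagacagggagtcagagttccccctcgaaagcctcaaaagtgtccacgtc
The Col3a1 window had 35.2% G and C, and the whole Col1a2 window had 62%, against a median of 52.4% over 32851 windows. TATAAA, searched on both strands, is present in 12.4% of all windows of 250 bases before a start, and GGGCGG in 32.7%. CCAAT, present in 33.85% of windows, matched once in the Col1a2 window, outside the bases shown, and not in that of Col3a1. The Col3a1 window held no GGGCGG and the Col1a2 window no TATAAA, so the windows shown share neither motif.

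Col1a1 had 13, 2664 and 3068 counts in fed vcAlkbh5 replicates 1, 2 and 3, against 15, 1652 and 6033 counts in fed WT replicates 1, 2 and 3. The unlabelled vcAlkbh5 library had 2567 counts and the unlabelled WT library 2117. Scaled by TMM over the 8 libraries, these are 1.94, 364 and 383 CPM in fed vcAlkbh5, 2.49, 190 and 1170 CPM in fed WT, 279 CPM in unlabelled vcAlkbh5 and 274 CPM in unlabelled WT. The gene was low in the replicates numbered 1 of both genotypes and highest in WT fed replicate 3, and the groups overlapped.

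Col1a2 followed the same order of libraries except between the 2 lowest. It had 20, 1520 and 1761 counts in fed vcAlkbh5, against 10, 899 and 3393 counts in fed WT, with 1490 in unlabelled vcAlkbh5 and 1198 in unlabelled WT. In CPM these are 2.99, 208 and 220 in fed vcAlkbh5, 1.66, 104 and 658 in fed WT, 162 in unlabelled vcAlkbh5 and 155 in unlabelled WT. Between the lowest and the highest of the 6 libraries other than the fed replicates numbered 1, CPM differed 6.15-fold for Col1a1 and 6.36-fold for Col1a2.

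Col3a1 was close to its detection limit everywhere. It had 1, 14 and 17 counts in fed vcAlkbh5, against 0, 22 and 37 in fed WT, with 17 in unlabelled vcAlkbh5 and 19 in unlabelled WT. That is 0.149, 1.91 and 2.12 CPM in fed vcAlkbh5, 0, 2.53 and 7.18 CPM in fed WT, and 1.85 and 2.46 CPM in unlabelled vcAlkbh5 and unlabelled WT. The type III chain was thus detected at a small part of the level of the type I chains in every library with more than a few counts.

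Col14a1 had 2, 182 and 174 counts in fed vcAlkbh5, against 1, 210 and 69 in fed WT, with 155 in unlabelled vcAlkbh5 and 112 in unlabelled WT. In CPM it had 0.299, 24.9 and 21.7 in fed vcAlkbh5, 0.166, 24.2 and 13.4 in fed WT, 16.9 in unlabelled vcAlkbh5 and 14.5 in unlabelled WT. Unlike the other 4 genes, this fibril-surface collagen was not highest in WT fed replicate 3, where it had the lowest level of the 6 libraries other than the fed replicates numbered 1. Its CPM spanned 1.86-fold over those 6.

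Sparc had 5, 158 and 236 counts in fed vcAlkbh5, against 7, 101 and 416 in fed WT, with 177 in unlabelled vcAlkbh5 and 177 in unlabelled WT. In CPM it had 0.747, 21.6 and 29.5 in fed vcAlkbh5, 1.16, 11.6 and 80.7 in fed WT, 19.3 in unlabelled vcAlkbh5 and 22.9 in unlabelled WT. Osteonectin RNA therefore had its lowest values in the same 2 libraries as the collagen chains and its highest in WT fed replicate 3. Summed over the 5 genes, the libraries held 6.13, 620 and 657 CPM in fed vcAlkbh5, 5.49, 332 and 1929 CPM in fed WT, 479 CPM in unlabelled vcAlkbh5 and 469 CPM in unlabelled WT. In these bulk samples, fewer cells that make these RNAs and less of the RNA per cell cannot be told apart.

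**Figure D1:**
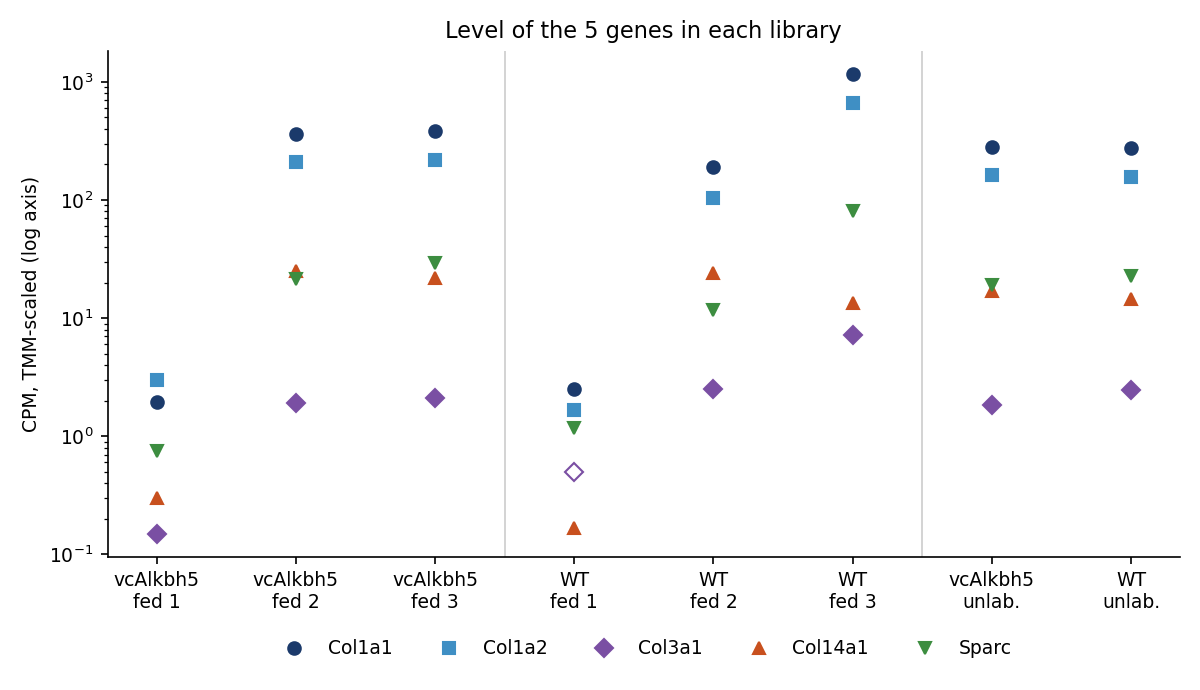
TMM-scaled CPM (log axis) of each of the 5 genes in each of the 8 libraries, 1 point per library and gene, grouped by genotype and s4U feeding; the open diamond is Col3a1 with 0 counts in WT fed replicate 1, drawn at the level that 3 counts would give. All 5 genes sit lowest in the fed replicates numbered 1 of both genotypes (Col1a1 at 1.94 and 2.49 CPM), and 4 of the 5 sit highest in WT fed replicate 3 (Col1a1 at 1170 CPM).

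The size of that gap is given here as a description, since it chose the genes. Replicates 2 and 3 pooled had a 193-fold higher CPM of Col1a1 than replicate 1 in fed vcAlkbh5 libraries (95% exact counting interval 113 to 362), and a 223-fold higher one in fed WT libraries (135 to 398). For Col1a2 the pooled ratio was 71.6 in vcAlkbh5 (46.3 to 117) and 186 in WT (101 to 389). Type I collagen RNA was thus scarce in replicate 1 of both genotypes. For Col14a1 the ratio was 77.7 in vcAlkbh5 (21.4 to 644) and 121 in WT (21.6 to 4804), and for Sparc it was 34.4 in vcAlkbh5 (14.6 to 107) and 32.1 in WT (15.5 to 80.2). Col3a1 was 13.5-fold higher in vcAlkbh5 (2.26 to 552) and at least 8.54-fold higher in WT, against a floor of 3 counts in replicate 1. Over all 5 genes the ratio was 104 in vcAlkbh5 (76.8 to 146) and 169 in WT (120 to 246). These intervals cover counting error only, since reads without molecular identifiers are not independent molecules. Just inside that gap, the highest of the 2 low values of Col1a1 was 2.49 CPM, and just outside it the lowest of the other 6 was 190 CPM. For Col3a1 the same 2 values were 0.149 and 1.85 CPM. By the SD of log2 CPM over the 8 libraries, Col1a1 ranked 4 and Col1a2 5 among the 14031 genes, with Col14a1 at 10, Sparc at 14 and Col3a1 at 54.

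Per length, the order of the 5 genes was the same in all 6 of the other libraries. Median levels over these 6 were 54.2 CPM per kilobase of the longest coding transcript for Col1a1, 34.6 for Col1a2, 9.67 for Sparc, 2.99 for Col14a1 and 0.412 for Col3a1. The ranges of neighbours overlapped for Col1a1 (32.1 to 197) and Col1a2 (19.3 to 123), and for Col1a2 and Sparc (5.05 to 35.1). Sparc and Col14a1 (2.07 to 3.85) did not overlap, nor did Col14a1 and Col3a1 (0.332 to 1.29). Within each library the gap between the type I chains was steady, as their ratio below shows. With 0 to 20 counts per gene, the fed replicates numbered 1 each gave another order.

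Col1a1 and Col1a2 kept a nearly fixed proportion wherever both were well counted. For every 100 Col1a1 counts there were 57.1 and 57.4 Col1a2 counts in vcAlkbh5 fed replicates 2 and 3, against 54.4 and 56.2 in WT fed replicates 2 and 3. The unlabelled vcAlkbh5 library had 58 and the unlabelled WT library 56.6. The highest of these was 1.07-fold the lowest, while the level of Col1a1 itself spanned 6.15-fold over the same libraries. Per length, the alpha-2 chain stood at 0.603 to 0.644 of the alpha-1 chain. In the fed replicates numbered 1, with 20 Col1a2 counts in vcAlkbh5 and 10 in WT, the proportion was 154 (72.8 to 337) and 66.7 (26.8 to 159).

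Sparc stayed within a narrow band of type I collagen too, from 5.93 counts per 100 of Col1a1 in vcAlkbh5 fed replicate 2 to 8.36 in the unlabelled WT library. In the replicates numbered 1 it stood higher relative to Col1a1, at 38.5 (10.7 to 115) per 100 in vcAlkbh5 and 46.7 (16.1 to 122) in WT, from 5 and 7 Sparc counts. Both of these intervals lie above the values of the other 6 libraries. They rest on few counts in 1 library each and on values that chose the genes, so this is a description.

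Col14a1 did not hold its proportion. It had 6.83 and 5.67 counts per 100 of Col1a1 in vcAlkbh5 fed replicates 2 and 3, against 12.7 (11 to 14.7) in WT fed replicate 2 and 1.14 (0.889 to 1.45) in WT fed replicate 3. The unlabelled vcAlkbh5 library had 6.04 and the unlabelled WT library 5.29. The proportion spanned 11.1-fold over the 6 libraries, and the counting intervals of the 2 WT fed replicates did not reach those of any other of the 6. Col3a1 ran from 0.526 to 1.33 per 100, with counting intervals that overlapped for every pair of these libraries.

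**Figure D2:**
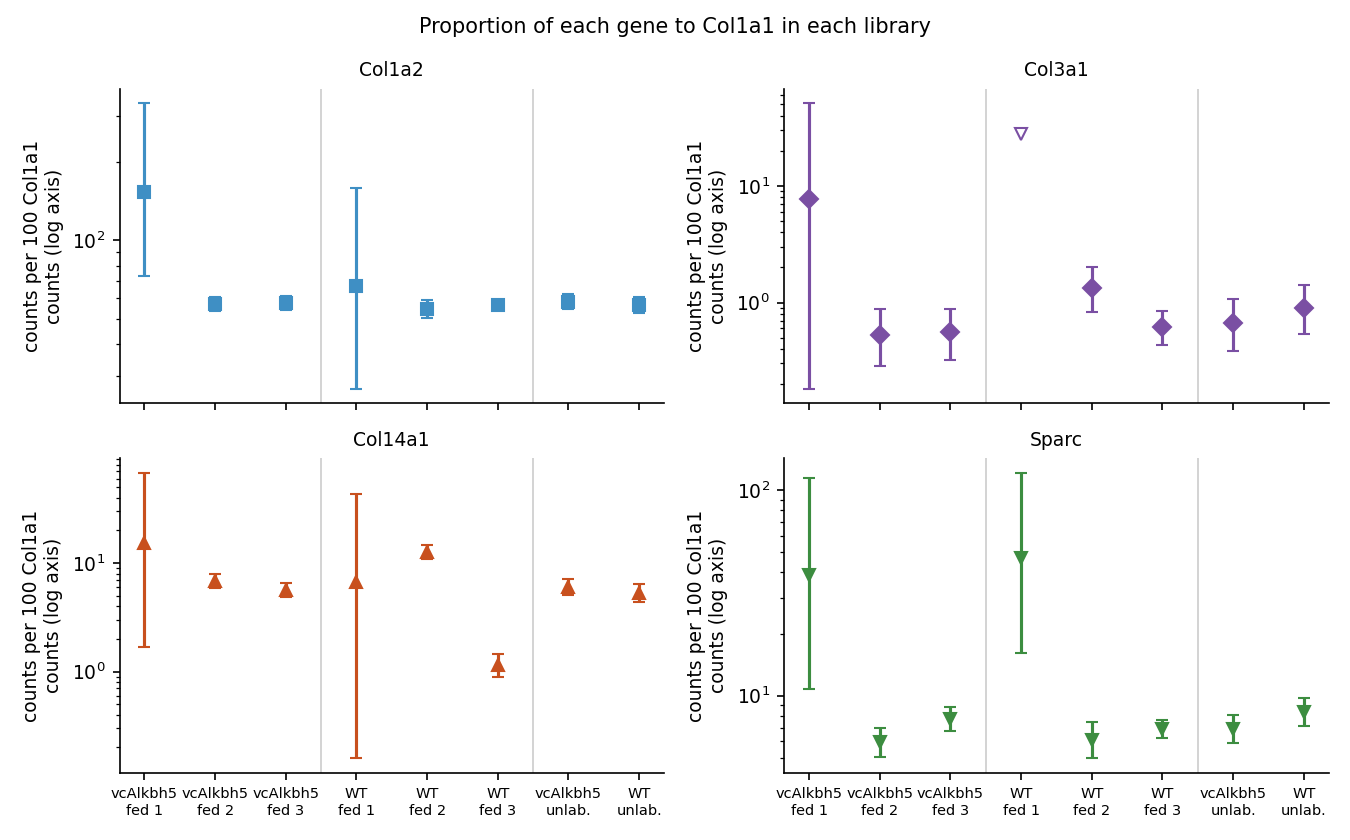
Counts of Col1a2, Sparc, Col14a1 and Col3a1 per 100 Col1a1 counts (log axis) in each library, with 95% exact counting intervals; the open triangle is the upper bound for Col3a1 with 0 counts. Col1a2 lies on a level line from 54.4 to 58 in the 6 well-counted libraries, and Col14a1 moves between 1.14 and 12.7.

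Between genotypes, none of the 5 genes differed beyond the spread of the fed replicates. The genes were picked for being far lower in the fed replicates numbered 1, and that gap is part of this spread. The choice of genes thus made a call unlikely, and its absence does not show equal levels. In edgeR's quasi-likelihood test of 3 fed vcAlkbh5 against 3 fed WT libraries, with Benjamini-Hochberg adjustment over 13342 genes at 0.05, 0.0075% of genes were called, which is Alkbh5 alone, and 0 of the 5. Col1a1 averaged 250 ± 215 CPM in fed vcAlkbh5 and 454 ± 627 CPM in fed WT (SD, n = 3 each), with a log2 fold change of -0.85 ± 1.75 (SE) and an adjusted p of 1.00. For Col1a2 the means were 144 ± 122 CPM in fed vcAlkbh5 and 254 ± 353 CPM in fed WT, and the log2 fold change was -0.81 ± 1.63. The type I chains thus had SDs close to or above their means. Col3a1 averaged 1.395 ± 1.08 CPM in fed vcAlkbh5 and 3.24 ± 3.64 CPM in fed WT, with a log2 fold change of -1.14 ± 1.13. Col14a1 averaged 15.6 ± 13.4 CPM in fed vcAlkbh5 and 12.6 ± 12 CPM in fed WT, with a log2 fold change of 0.30 ± 1.27. For Sparc the values were 17.3 ± 14.9 CPM in fed vcAlkbh5 and 31.2 ± 43.2 CPM in fed WT, and -0.81 ± 1.32. All 5 adjusted p were 1.00, and the approximate 95% interval of the Col1a1 difference, from its SE, ran from -4.28 to 2.58 on the log2 scale. The median of the 5 log2 fold changes was -0.81, beside 0.0012 over all genes tested.

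WT fed replicate 3, which also stood apart over all genes, set the sign of 4 of these differences. Without it, the log2 fold changes were 1.37 for Col1a1, 1.44 for Col1a2, 0.07 for Col3a1 and 1.39 for Sparc, with adjusted p of 1.00 in the same test. For Col14a1 the sign turned without WT fed replicate 1 (-0.27), vcAlkbh5 fed replicate 2 (-0.19) or vcAlkbh5 fed replicate 3 (-0.02). With both replicates numbered 1 left out, the differences were -0.86 ± 0.71 for Col1a1, -0.83 ± 0.72 for Col1a2, -1.21 ± 0.57 for Col3a1, 0.29 ± 0.31 for Col14a1 and -0.83 ± 0.77 for Sparc, and 0 of the 5 passed.

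For Col1a1, Col1a2 and Sparc, the same-numbered libraries went different ways. In replicates numbered 2 the ratio of vcAlkbh5 over WT was 1.92 for Col1a1 (95% counting interval 1.8 to 2.04), 2.01 for Col1a2 and 1.86 for Sparc. In replicates numbered 3 it was 0.328 for Col1a1 (0.314 to 0.342), 0.334 for Col1a2 and 0.365 for Sparc. Type I collagen and Sparc were thus higher in the vcAlkbh5 library of the one number and lower in that of the other. Col14a1 stood at 1.03 (0.839 to 1.26) in number 2 and at 1.62 (1.22 to 2.18) in number 3. For Col3a1 the ratio was below 1 in both, at 0.756 (0.358 to 1.54) in number 2 and 0.296 (0.156 to 0.539) in number 3. In number 1, over all 5 genes, 41 counts in vcAlkbh5 and 33 in WT gave a ratio of 1.12 (0.689 to 1.82). Numbers 1 and 3 shared the pattern of Xist and Ddx3y, with 237 and 552 counts of Ddx3y in vcAlkbh5 and 200 and 255 in WT, and number 2 had 0. The part of this difference between the libraries in the ratios was not tested.

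Without s4U the genotypes lay close together. With 1 library per genotype there is no replicate check. The ratio of vcAlkbh5 over WT was 1.02 for Col1a1 (95% counting interval 0.962 to 1.08) and 1.05 for Col1a2 (0.969 to 1.13). It was 0.752 for Col3a1 (0.367 to 1.53), 1.16 for Col14a1 (0.907 to 1.5) and 0.841 for Sparc (0.679 to 1.04), and every interval included equal levels. Both unlabelled libraries had Xist (8770 counts in vcAlkbh5 and 9147 in WT) and Ddx3y (511 in vcAlkbh5 and 299 in WT), so each held RNA of both sexes.

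Feeding with s4U was not associated with a detectable change in the 5 genes. Both unlabelled libraries held Xist and Ddx3y together, and no fed library did beyond 2 counts of Xist. The contrast cannot tell feeding from this difference. Its spread, like that of the interaction below, also includes the low fed replicates numbered 1 that chose the genes. In the additive edgeR fit of 6 fed against 2 unlabelled libraries, 0.0281% of 14232 genes were called (Actg-ps1, Gm12715, Gm8543 and Hist1h2al, all higher in fed libraries), and 0 of the 5. The count over all genes depended on the method, with 345 higher and 291 lower in DESeq2 and 16 higher and 21 lower in edgeR without a low-count filter, and 0 of the 5 in either (DESeq2 gave Col3a1 no adjusted p). The log2 fold changes were 0.25 ± 1.87 for Col1a1, 0.24 ± 1.73 for Col1a2, -0.0030 ± 0.87 for Col3a1, -0.14 ± 1.13 for Col14a1 and 0.13 ± 1.22 for Sparc. Their adjusted p ran from 0.951 to 0.999, and their median of 0.13 stands beside 0.03 over all genes. Single libraries set these signs as well. The Col1a1 value was -0.84 without WT fed replicate 3 and -0.16 without the unlabelled WT library, and the Col1a2 values under the same 2 omissions were -0.87 and -0.17. Sparc was at -0.95 without WT fed replicate 3, -0.17 without vcAlkbh5 fed replicate 3 and -0.15 without the unlabelled WT library. Col14a1 was at 0.12 without WT fed replicate 1 and at 0.13 without vcAlkbh5 fed replicate 1. For Col3a1 the value turned to 0.27 without WT fed replicate 1, 0.05 without WT fed replicate 2, 0.25 without vcAlkbh5 fed replicate 1 and 0.36 without the unlabelled vcAlkbh5 library.

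With both fed replicates numbered 1 left out, the s4U differences were 0.85 for Col1a1, 0.83 for Col1a2, 0.55 for Col3a1, 0.44 for Col14a1 and 0.70 for Sparc. All 5 were then positive, with edgeR adjusted p between 0.321 and 0.53. The contrast called 1 gene in place of 4 in that fit, and the count fell to 0 without any one of WT fed replicates 1 or 3, vcAlkbh5 fed replicates 2 or 3, or either unlabelled library. It was 2 without WT fed replicate 2 and 1 without vcAlkbh5 fed replicate 1.

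Whether the genotype difference itself differed with s4U could not be resolved. The interaction in the edgeR fit called 0 of 14988 genes (0%), 24 of which had an unadjusted p under 0.05, and DESeq2 called 0. The interaction terms were -0.89 ± 4.09 for Col1a1, -0.89 ± 3.79 for Col1a2, -0.74 ± 2.18 for Col3a1, 0.08 ± 2.60 for Col14a1 and -0.58 ± 2.74 for Sparc, each with an adjusted p of 1.00. Without WT fed replicate 3 the terms were 1.36 for Col1a1, 1.39 for Col1a2, 0.49 for Col3a1 and 1.66 for Sparc. That of Col14a1 was -0.49 without WT fed replicate 1, -0.39 without vcAlkbh5 fed replicate 2 and -0.23 without vcAlkbh5 fed replicate 3.

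**Figure D3:**
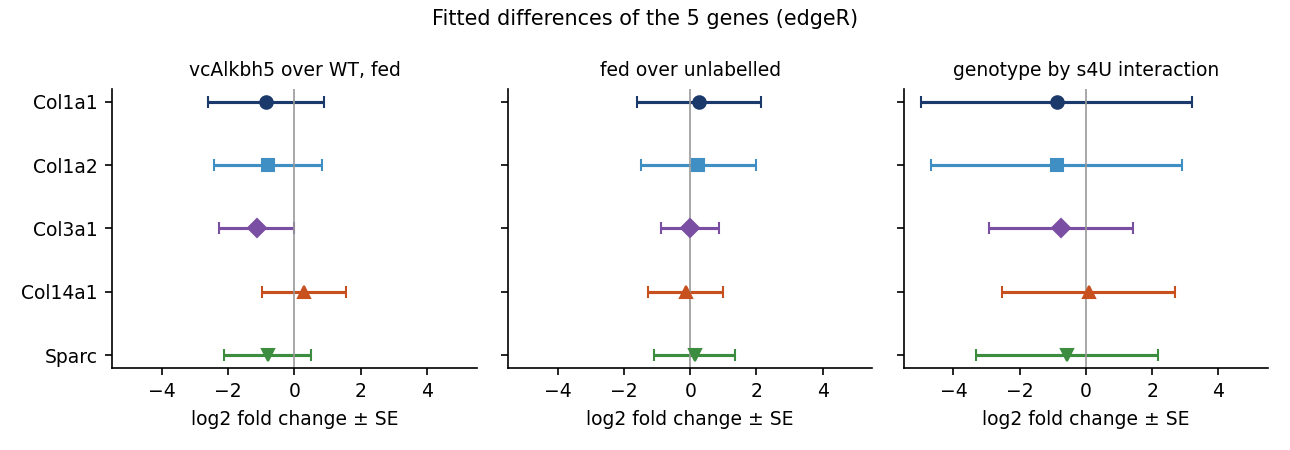
Log2 fold changes of the 5 genes in edgeR's fits: vcAlkbh5 over WT in fed libraries, s4U-fed over unlabelled, and the interaction, as points with bars of 1 SE. Every bar but that of Col3a1 in the genotype contrast (-1.14 ± 1.13) spans 0, and the interaction has the widest bars (Col1a1 at ± 4.09).

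The other collagen chains showed part of the same pattern. Of 24 chains outside the 5 genes, 14 had a mean of at least 1 CPM, and 10 of those 14 were lower in both fed replicates numbered 1 than in any of the other 6 libraries, beside 16.3% of all such genes; 0 were higher in both. Their summed level was 36.9 to 43 CPM in the fed replicates numbered 1, against 71.7 to 207 CPM in the other 6. Col5a1, a chain of the fibril-initiating type V collagen, had 12.6, 14.4 and 17.2 CPM in fed vcAlkbh5 against 12, 16.5 and 21.7 CPM in fed WT. Col11a2, a chain of the related type XI collagen, had 10.9, 20.9 and 21.4 CPM in fed vcAlkbh5 against 8.81, 19.2 and 60.1 CPM in fed WT. Both were lowest in the replicates numbered 1 but were not lost from them. The basement membrane chain Col4a1 had 5.38, 5.33 and 7.62 CPM in fed vcAlkbh5 against 5.32, 6.79 and 18.6 CPM in fed WT, so it did not share the gap.

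Genes that fold, modify and export collagen had a higher sum in the replicates numbered 1, most of it P4hb. Their total was 1883 to 1886 CPM in the fed replicates numbered 1, against 1059 to 1303 CPM in the other 6, and 2 of 17 well-detected genes were lower in both replicates numbered 1 while 6 were higher, beside 16.3% and 18.1% of all such genes. P4hb, the beta subunit of prolyl 4-hydroxylase and a general protein disulfide isomerase, had 1074, 650 and 648 CPM in fed vcAlkbh5 against 1054, 630 and 650 CPM in fed WT. Ppib, a cyclophilin of the endoplasmic reticulum, had 264, 188 and 176 CPM in fed vcAlkbh5 against 286, 185 and 191 CPM in fed WT. Both are made by many secretory cells. Serpinh1, the collagen-specific chaperone HSP47, was named here after its values were seen, with 18, 35 and 25 counts in fed vcAlkbh5 against 11, 13 and 65 in fed WT. Mia3, which helps load large cargo such as procollagen for export, had 174, 129 and 143 CPM in fed vcAlkbh5 against 145, 146 and 91.2 CPM in fed WT.

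Other matrix proteins summed to 5239 to 5438 CPM in the replicates numbered 1, against 1212 to 3173 CPM in the other 6. The most abundant, Fn1, fibronectin, had 3918, 1274 and 1906 CPM in fed vcAlkbh5 against 4251, 1919 and 801 CPM in fed WT, and was thus lowest of all in the WT library with the most type I collagen. Thbs1, thrombospondin 1, had 1105, 824 and 677 CPM in fed vcAlkbh5 against 800, 1096 and 298 CPM in fed WT. The proteoglycan gene Vcan had 382, 83.9 and 122 CPM in fed vcAlkbh5 against 156, 110 and 30.3 CPM in fed WT. Over the list, 2 of 11 well-detected genes were lower in both replicates numbered 1 and 2 were higher. Over all such genes the shares were 16.3% and 18.1%, to be set beside each list here. Collagen receptors and turnover genes, led by the integrin chains Itgb1 and Itga1 and the collagenase Mmp8, had 4 of 13 lower and 3 higher. TGF-beta pathway genes, known to regulate collagen synthesis, had 5 of 17 lower and 0 higher, and their sum was 1177 to 1191 CPM in the replicates numbered 1 against 1288 to 1472 CPM in the other 6. Tgfb1 itself had 466, 445 and 404 CPM in fed vcAlkbh5 against 444, 402 and 568 CPM in fed WT. The negative regulator Skil and the receptor Tgfbr2 followed it in level.

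Markers of marrow fibroblasts and reticular cells differed widely in level, and several were hardly detected. Dcn, decorin, had 2, 6 and 12 counts in fed vcAlkbh5 against 0, 7 and 4 in fed WT, with 4 and 5 in unlabelled vcAlkbh5 and unlabelled WT. Lum, lumican, had 0, 2 and 11 counts in fed vcAlkbh5 against 0, 4 and 5 in fed WT, and Pdgfra had 0, 4 and 8 against 0, 6 and 9. Lepr, a marker of perivascular stromal cells, had 4, 12 and 8 counts in fed vcAlkbh5 against 2, 10 and 12 in fed WT. These 4 had few counts even in the 6 libraries with 1652 or more counts of Col1a1. Cxcl12, the chemokine of the stem cell niche, which defines reticular cells, was better detected, with 53, 92 and 109 counts in fed vcAlkbh5 against 21, 91 and 203 in fed WT. Pdgfrb had 60, 27 and 32 counts in fed vcAlkbh5 against 37, 39 and 40 in fed WT, with no gap at the replicates numbered 1, and Igfbp4 had 1216 to 2373 counts over the 8 libraries.

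Over the whole list of stromal and fibroblast markers, 5 of 18 well-detected genes were lower in both replicates numbered 1 and 4 were higher, beside 16.3% and 18.1% of all such genes. The summed level was 4577 to 5364 CPM in the replicates numbered 1, against 2067 to 2963 CPM in the other 6, most of it Vim, which blood cells also express (4685, 1879 and 2106 CPM in fed vcAlkbh5 against 3886, 1700 and 2141 CPM in fed WT). Osteoblast markers summed to 151 to 186 CPM in the replicates numbered 1 against 108 to 157 CPM in the other 6, and 2 of 6 were lower and 1 higher. Ibsp, bone sialoprotein, was one of those lower, at 1.64, 9.56 and 8.62 CPM in fed vcAlkbh5 against 0.998, 6.45 and 19.8 CPM in fed WT. Spp1, osteopontin, which macrophages also make, was higher, at 94.6, 20.4 and 29.1 CPM in fed vcAlkbh5 against 72.7, 37.4 and 23.7 CPM in fed WT. Runx2, the most abundant gene of the list, showed no gap. It had 86.1, 70.4 and 80.5 CPM in fed vcAlkbh5 against 73.7, 60.4 and 87.3 CPM in fed WT. The osteocalcin genes were near 0, with at most 6 counts of Bglap and 11 of Bglap2 in any library, and Sp7 had at most 4.

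Markers of other cell types moved with the same 2 libraries to differing degrees. Macrophage markers showed the gap in most genes: 13 of 16 were lower in both replicates numbered 1, beside 16.3% of all well-detected genes, and 2 were higher, beside 18.1%. The sum was 685 to 762 CPM in the replicates numbered 1, against 858 to 1360 CPM in the other 6. The most abundant, Apoe, had 142, 390 and 339 CPM in fed vcAlkbh5 against 190, 347 and 448 CPM in fed WT, and Vcam1, listed for stroma and macrophages alike, had 22.4, 127 and 138 against 20.8, 129 and 81.1 CPM. Csf1r, the receptor for the growth factor CSF1, was higher in the replicates numbered 1, at 399, 205 and 223 CPM in fed vcAlkbh5 against 309, 211 and 209 CPM in fed WT. The part of these cells in the collagen values was not tested.

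The counts of the next lists stand beside 16.3% of all well-detected genes lower in both replicates numbered 1 and 18.1% higher. Endothelial markers (173 to 182 CPM in the replicates numbered 1, 154 to 274 CPM in the other 6) had 2 of 10 lower and 1 higher, with Pecam1 at 92.7, 70.6 and 75 CPM in fed vcAlkbh5 against 97.3, 69.5 and 89.6 CPM in fed WT. Megakaryocyte and platelet markers (328 to 335 CPM in the replicates numbered 1, 258 to 493 CPM in the other 6) had 1 of 12 lower and 1 higher. Adipocyte, muscle and pericyte markers had 1 of 3 lower and 0 higher, with Lpl as their most abundant gene. Stem and progenitor markers summed to 9294 to 9526 CPM in the replicates numbered 1 against 4361 to 6839 CPM in the other 6. Most of this was Mpo (8035 CPM in vcAlkbh5 and 7855 CPM in WT fed replicate 1), while 1 of 12 was lower and 2 were higher, and Myb was lower there, at 296 and 318 CPM against 345 to 388 CPM. Markers of the mature lineages that depletion removes summed to 884 to 1247 CPM in the replicates numbered 1 against 496 to 933 CPM in the other 6, with 3 of 13 lower and 3 higher. In none of the 13 lists did a gene pass the edgeR test at an adjusted p of 0.05 in the genotype, s4U or interaction contrast.

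**Figure D4:**
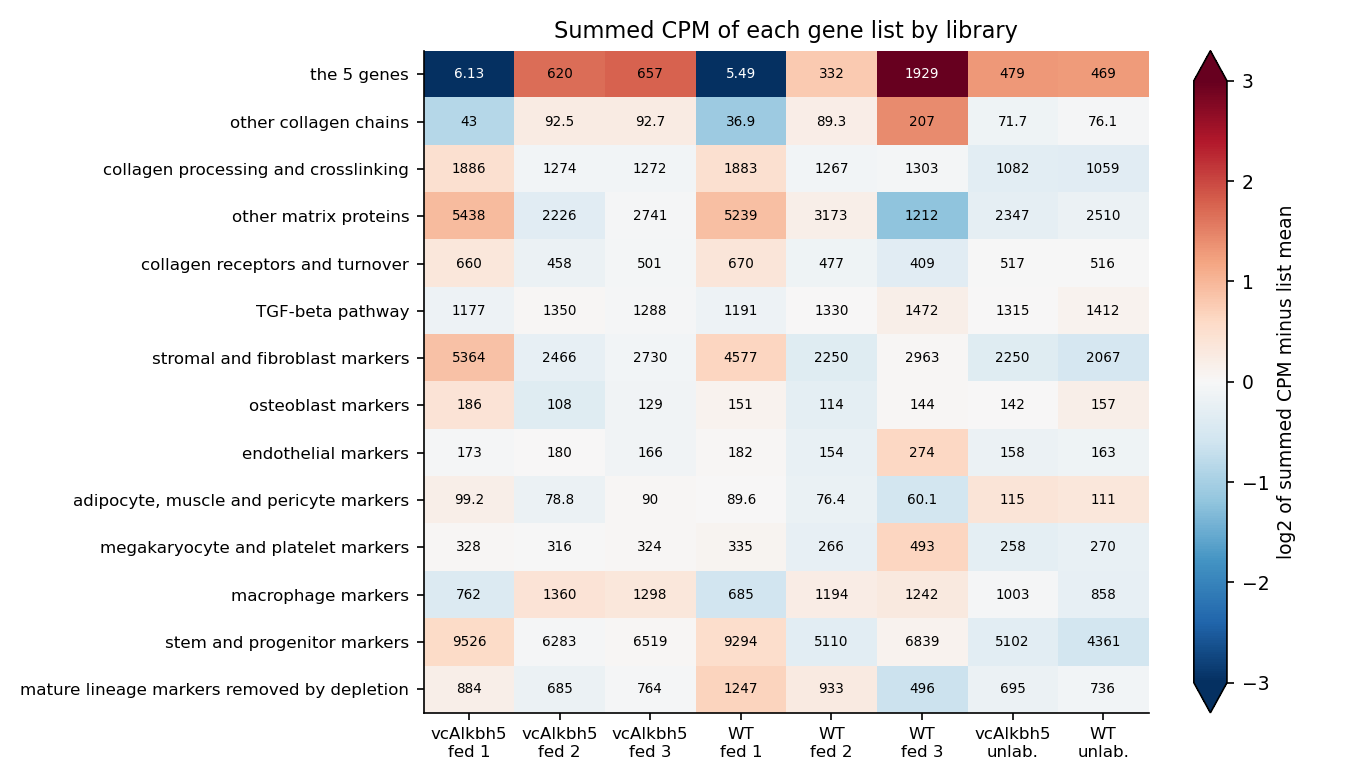
Summed CPM of the 5 genes and of the 13 lists in each library, printed in the cells, with colour showing log2 of the sum minus the list's mean over the 8 libraries. The 5 genes stand at 6.13 and 5.49 CPM in the fed replicates numbered 1, and macrophage markers and other collagen chains are the lists that also stand lowest there along with the TGF-beta pathway.

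The genes whose pattern over the 8 libraries lay nearest to the summed counts of the 5 were a mix of fibrillar collagens, macrophage genes and small RNAs. Likeness was the root mean square difference of mean-centred log2 CPM with a prior count of 2, over 14026 other genes. It is a description, as the fed replicates numbered 1 and WT fed replicate 3 stand apart from the other libraries. Col5a2, another chain of type V collagen, was nearest at 0.823, and Col11a1, a chain of type XI collagen, followed at 0.98. Then came the macrophage genes Cd5l (1.03), C1qc (1.37) and C1qa (1.43), the small nuclear RNA gene Gm25939 (1.48), the scavenger receptor gene Cd163 (1.49) and the small nucleolar RNA gene Gm25835 (1.49). The median gene stood at 2.99. Col1a2 stood at 0.207 and Col1a1 at 0.257 from the sum they dominate, with Sparc at 1.01, Col14a1 at 1.09 and Col3a1 at 1.60. The prior count compresses genes with few counts, so Col3a1 and other low genes appear flatter than their counts.

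Col5a2 had 0, 52 and 79 counts in fed vcAlkbh5 against 0, 34 and 131 in fed WT, with 40 in unlabelled vcAlkbh5 and 42 in unlabelled WT. Col11a1 had 1, 66 and 55 counts in fed vcAlkbh5 against 0, 33 and 91 in fed WT, with 57 in unlabelled vcAlkbh5 and 44 in unlabelled WT. Both repeat the order of Col1a1 at the ends, lowest in the replicates numbered 1 and highest in WT fed replicate 3. They were also the nearest and second nearest genes to Col1a1, Col1a2 and Sparc taken singly, at 0.298 and 0.402 from Sparc. Col3a1 had the small nuclear RNA gene Gm24265 (0.316), Ibsp (0.337) and the macrophage receptor gene Marco (0.355) as its neighbours.

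Col14a1 differed in its neighbours. The nearest were Cd163 (0.512), Cd5l (0.543) and Fcna (0.738), genes known from tissue macrophages. Cd163 had 21, 523 and 518 counts in fed vcAlkbh5 against 13, 504 and 145 in fed WT, with 454 in unlabelled vcAlkbh5 and 322 in unlabelled WT. Like Col14a1, it was lower in WT fed replicate 3 than in the other 5 libraries outside the low pair. For every 100 Cd163 counts there were 34.8 and 33.6 Col14a1 counts in vcAlkbh5 fed replicates 2 and 3, against 41.7 and 47.6 in WT fed replicates 2 and 3, with 34.1 in unlabelled vcAlkbh5 and 34.8 in unlabelled WT. The highest was 1.42-fold the lowest, where the proportion of Col14a1 to Col1a1 spanned 11.1-fold. This pair was picked after the values were seen, so its steadiness is a description. In the replicates numbered 1 the proportion was 9.52 (1.08 to 39) in vcAlkbh5 and 7.69 (0.181 to 51.2) in WT, from 2 and 1 Col14a1 counts.

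**Figure D5:**
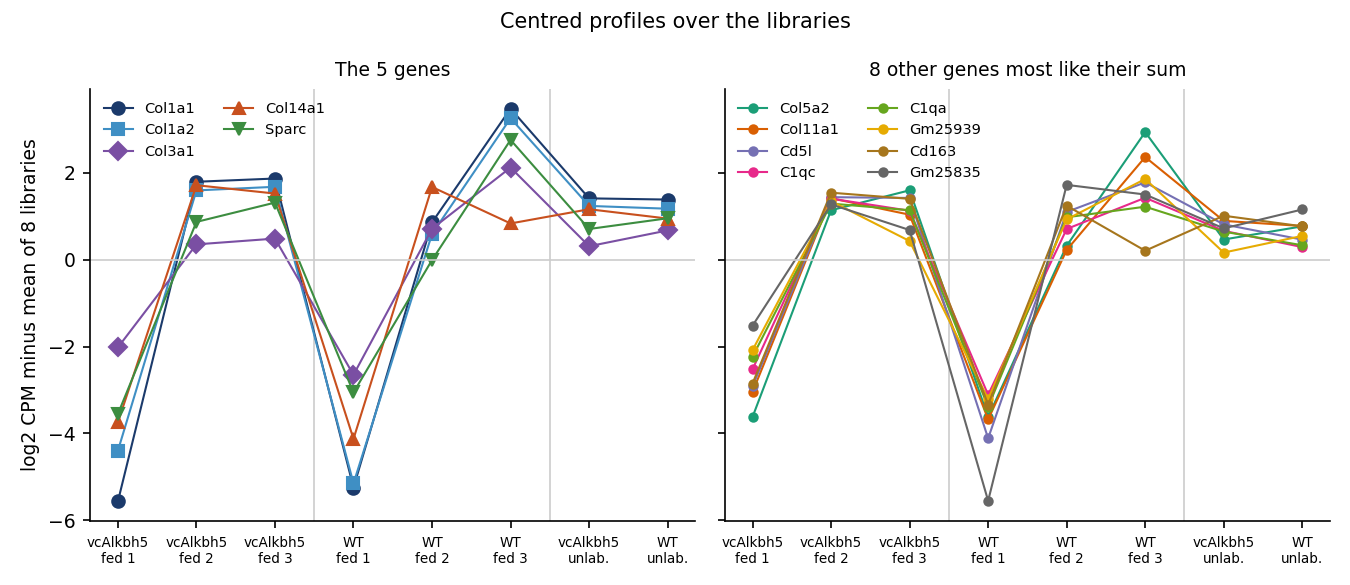
Mean-centred log2 CPM (prior count 2) of the 5 genes (left) and of the 8 other genes most like their sum (right) in each of the 8 libraries; lines join the points of 1 gene and give no order to the libraries. All stand lowest in the fed replicates numbered 1, while in WT fed replicate 3 Col1a1 and Col1a2 peak (3.48 and 3.26 above their means) and Col14a1 does not.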

How the data were processed

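Each deposited file holds the authors' raw read counts per gene for 1 of the 8 libraries. The kit was a strand-specific one for total RNA in small amounts, per the labels' protocols. The tools cutadapt, HISAT2, Picard, HTSeq, STAR and DESeq2 and the builds mm10 and GRCm38 are named, per the submitters' processing notes, with no version or role for any of them, and the strand setting of the counting is not stated. Entries that name no gene (928 per file, 37.6% to 52.1% of counts in no gene and others in several genes) were left out of totals and fits. Every pair of libraries differed by more than sampling noise (chi-square per gene of at least 2.93).

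The 5 genes, the 13 lists and the tests were chosen with earlier results of these data known. Named beside the 5 genes were some of the 3 genes of each list with the highest mean CPM, not all of which are printed. Genes past the threshold, the 8 genes most like the summed counts and the 3 most like each gene were named as well. Others are said to be chosen later or are defining markers. The test was that of edgeR 4.0.16 under R 4.3.3 (TMM, default low-count filter, robust quasi-likelihood, Benjamini-Hochberg at 0.05). It was also run on simulated data, with no outcome given here. How well it performs on libraries that differ as much as these was not tested. The genotype contrast used the 6 fed libraries, and the s4U and interaction contrasts used all 8. Each SE is the size of the log2 fold change divided by the square root of the test's F. It is approximate, most of all for small differences: for Col3a1 in the s4U contrast it was 0.87 with TMM and 1.76 with RLE scaling. Members of a list were counted as well detected at a mean of 1 CPM. All 5 genes passed the filter in every contrast. Intervals are exact binomial at 95%, from SciPy 1.17.1. Lengths and coordinates come from GENCODE M21.

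The labels do not state that same-numbered samples are paired, so the main genotype fit was unpaired. Deviations from the group means correlated between same-numbered vcAlkbh5 and WT libraries (r = 0.68, 0.29 and 0.19 over 13342 genes for numbers 1, 2 and 3). Libraries of unlike numbers 2 and 3 correlated at 0.35, so these correlations do not show that numbers 2 and 3 are paired. Fits with the number as a block were computed as an alternative. DESeq2 1.42.0, RLE scaling, other low-count filters (none, or 1 CPM in 2 libraries), a genotype fit that adds the unlabelled libraries, and the removal of single libraries or of both fed replicates numbered 1 served as further alternatives.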

Additional observations from a re-analysis of the deposited data

How the results depend on the processing

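Over 15 log2 fold changes of the 5 genes and 190 alternative fits, 160 kept the direction and 30 turned it, and 0 passed the threshold, with a smallest adjusted p of 0.321 in edgeR or DESeq2. With 1 library left out at a time, the genotype difference ran from -1.44 to 1.37 for Col1a1, -1.40 to 1.44 for Col1a2, -1.72 to 0.067 for Col3a1, -0.27 to 1.25 for Col14a1 and -1.46 to 1.39 for Sparc. The s4U difference ran from -0.84 to 0.73 for Col1a1, -0.87 to 0.71 for Col1a2, -0.59 to 0.36 for Col3a1, -0.58 to 0.13 for Col14a1 and -0.95 to 0.43 for Sparc. The interaction ran from -1.47 to 1.36 for Col1a1, -1.47 to 1.39 for Col1a2, -1.32 to 0.49 for Col3a1, -0.49 to 1.02 for Col14a1 and -1.21 to 1.66 for Sparc. Where an unlabelled library was left out, the other was assumed to vary like the fed ones. The s4U difference of Col3a1 also turned to 0.0012 with RLE size factors and to 0.55 without both fed replicates numbered 1, and that of Col14a1 turned to 0.44 in that second fit. Genes called between genotypes numbered 2 with no low-count filter and 2 with DESeq2, against 1. Genes called in the s4U contrast numbered 37 with no low-count filter, 636 with DESeq2, 1 without both replicates numbered 1 and 0 to 2 with 1 library left out, against 4, and the cause was not tested. With the replicate block, the genotype differences were -0.34 ± 0.48 for Col1a1, -0.14 ± 0.50 for Col1a2, -0.99 ± 0.55 for Col3a1, 0.37 ± 0.27 for Col14a1 and -0.37 ± 0.46 for Sparc. The block changed no call of the 5 genes and neither count of calls, in the genotype contrast or in the interaction. It could not be fitted to the s4U contrast, since the unlabelled libraries would form a level of their own. The unlabelled ratios and the mean summed CPM of each fed group moved by less than their error under the other scalings, and 6 of the 8 genes most like the sum were among the first 8 in the 6 fed libraries alone. Few counts limit the fed replicates numbered 1, with 41 counts over the 5 genes in vcAlkbh5 and 33 in WT, and Col3a1 in all 8 libraries. The total gene counts of these replicates, 7172562 in vcAlkbh5 and 6338915 in WT, lay within the range of the other libraries.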
